A study of Homo sapiens with 6 samples.

Results

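The transcripts described here are those of the genes that copy and repair DNA, in 786-O renal cancer cells with and without knockdown of YB1. The members are the rows of the deposited expression table whose KEGG annotation holds at least 1 of 5 pathways, namely DNA replication (hsa03030), base excision repair (hsa03410), nucleotide excision repair (hsa03420), mismatch repair (hsa03430) and homologous recombination (hsa03440). This gave 124 of the 20030 genes listed, with 36, 33, 46, 23 and 41 genes in the 5 pathways in that order, and 21 of the 124 belong to more than 1 pathway. 786-O is an established human cell line from clear cell renal cell carcinoma. All libraries came from this line at passages 16 to 18. The control group (vector, 3 libraries) carried a scrambled small hairpin RNA (shRNA), and the knockdown group (shYB1, 3 libraries) shRNA against YB1. Both were delivered by lentivirus and kept under puromycin selection. The series text speaks of several independent shRNAs, whereas the labels give a single shYB1 group. The sample titles do not name the shRNA of each library. The labels also do not say whether the replicates came from separate cultures, so that p-values measure only the spread between these libraries. Expression was given as FPKM, fragment numbers scaled to transcript length and to the mapped fragments of the library, which allows levels of different genes to be compared per length.

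Replication forks are opened by the MCM helicase, primed by DNA polymerase alpha with its primase, and extended by DNA polymerases delta and epsilon, which are held on the template by the sliding clamp PCNA. The repair pathways replace single damaged bases (base excision), bulky lesions (nucleotide excision) and copying errors (mismatch repair), or rejoin broken chromosomes from an intact copy (homologous recombination), and each borrows part of the replication machinery to fill the gap. YB1, encoded by YBX1, is a cold-shock domain protein that binds RNA and DNA, and its name comes from the Y-box, an inverted CCAAT sequence of promoters.

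The target of the shRNA was measured first. In library order, YBX1 had 367, 373 and 378 FPKM with vector and 167, 166 and 173 FPKM with shYB1. The log2 fold change was -1.14 (SE 0.031, adjusted p = 1.53e-08 from limma), and the exact permutation test gave p = 0.1, the smallest that 3 libraries against 3 allow. All 10 markers listed for clear cell renal carcinoma and 786-O averaged at least 1 FPKM. They ran from CA9 (6.77 to 8.57 FPKM over the 6 libraries) through PAX8 (75.6 to 78.7 FPKM) to VIM (1366 to 1450 FPKM). Among them PAX2 was called higher with shYB1, and NNMT and VEGFA lower. Of the 13 leukocyte, endothelial and fibroblast markers, all but CD68 and LUM averaged under 1 FPKM. FPKM summed to 282736 to 295887 over the listed genes per library. The files hold no counts, so the absolute depth is unknown, and the spacing of the lowest values put the libraries between 0.971 and 1.09 times the depth of shYB1 replicate 1.

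In YB1 knockdown cells, replication and repair transcripts changed little in size, and those that passed the test were nearly all higher. Of the 124 members, 118 averaged at least 1 FPKM and entered the test. Of these, 25 were higher and 1 was lower at an adjusted p under 0.05 (limma), and 92 were not called. Over all 10439 genes tested, 18.7% were called higher and 6.93% lower, and the members' shares were 21.2% and 0.847%. The share of members called higher was thus near that of all genes. A log2 fold change above 0 was found in 90 of the 118, and in 64.1% of all genes tested. The median log2 fold change was 0.10 over the members and 0.055 over all genes tested. No member reached a fold of 2 with an unadjusted p under 0.05 in limma, whereas 0.22% of all genes tested did, and 46 members (39.0%) had an unadjusted p under 0.05 without the fold limit, the same share as over all genes tested (39.0%). The 3 shYB1 libraries lay wholly above or below the 3 vector libraries in 42 members, or 35.6%, against 42.6% of all genes tested. These splits depend on how the libraries are scaled. With size factors from the median of ratios to a common reference (median-of-ratios rescaling), 17 members were higher and 6 lower, and over all genes tested 11.4% were higher and 12.0% lower.

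**Figure D1:**
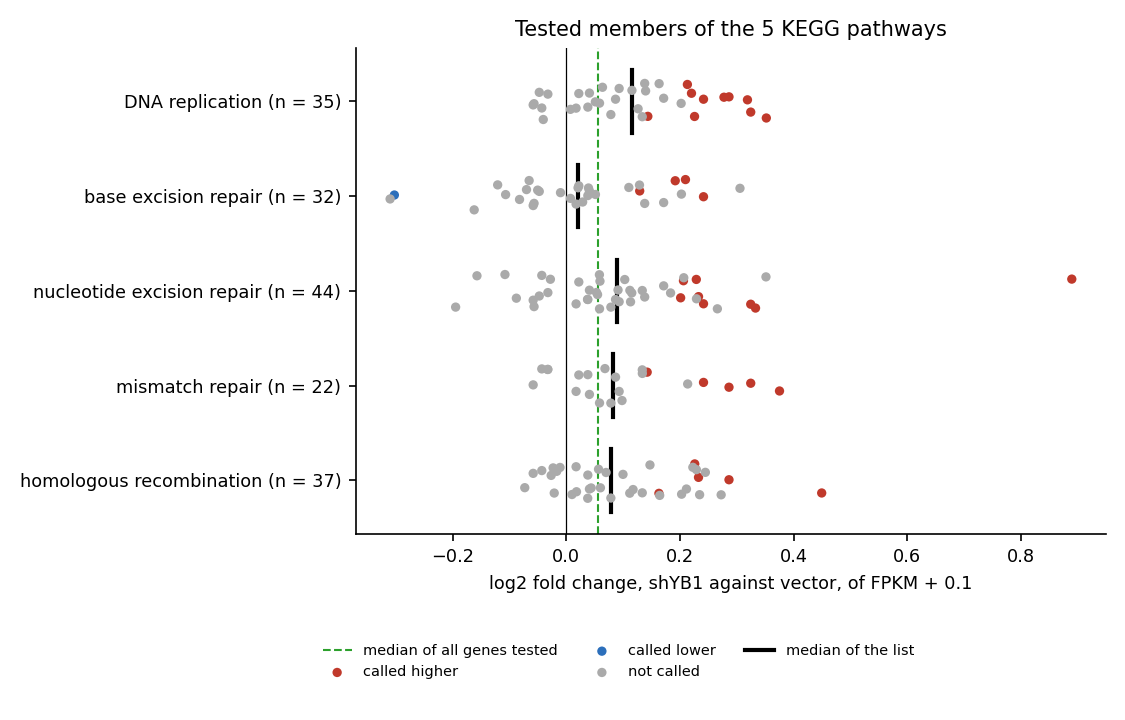
Each point is a tested member, placed by its log2 fold change (shYB1 against vector, on FPKM + 0.1, x axis) in the row of its KEGG pathway, and coloured by its call at an adjusted p under 0.05. Black bars are pathway medians and the dashed line is the median of all genes tested, 0.055, with the DNA replication median at 0.12 and the base excision repair median at 0.021.

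The 5 pathways were then taken apart. DNA replication had 10 of 35 tested members higher (28.6%) and 0 lower, with 14 at an unadjusted p under 0.05, a limit that 39.0% of all genes tested passed. Mismatch repair had 5 of 22 higher (22.7%) and 0 lower, with 7 at an unadjusted p under 0.05. Nucleotide excision repair had 8 of 44 higher (18.2%) and 0 lower, with 15 at an unadjusted p under 0.05. Homologous recombination had 5 of 37 higher (13.5%) and 0 lower, with 12 at an unadjusted p under 0.05. Base excision repair had 4 of 32 higher (12.5%) and 1 lower, with 10 at an unadjusted p under 0.05. Of these, DNA replication and mismatch repair lay above the 18.7% of all genes, and differences between the pathways were not tested. The pathways are not independent, since PCNA counts in 4 of them and RFC4 and SSBP1 in 3 each. Among the genes of a single pathway, 7 of 15 were higher for DNA replication, 2 of 7 for mismatch repair, 6 of 26 for nucleotide excision repair, 4 of 29 for homologous recombination and 3 of 21 for base excision repair. After median-of-ratios rescaling, the members called higher and lower were 9 and 0 for DNA replication, 3 and 0 for mismatch repair, 7 and 3 for nucleotide excision repair, 3 and 0 for homologous recombination, and 2 and 3 for base excision repair.

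**Figure D2:**
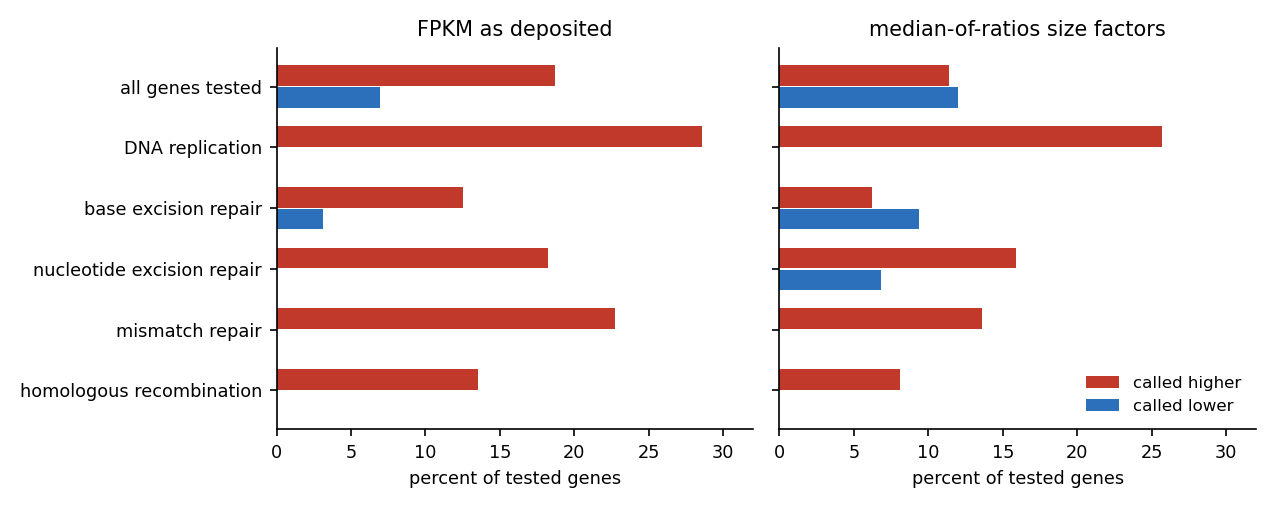
Bars give the percent of tested genes called higher (red) and lower (blue) in shYB1 libraries at an adjusted p under 0.05, for all genes tested and for each pathway, with FPKM as deposited (left) and after median-of-ratios rescaling (right). DNA replication stands at 28.6% and 25.7% higher, while all genes tested go from 18.7% to 11.4%.

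The promoters of members that were called show how often the letters of the Y-box core occur near their starts. RefSeq promoters of GRCh38.p14, taken from 250 bases before to 50 bases after each gene's start, were matched for 107 of the 124 members and searched on both strands for CCAAT and for the E2F letters TTTCGCGC, TTTGGCGC and TTCCCGCC, E2F being the factor family of many S phase genes. CCAAT was found in 46 of the 107 promoters (43.0%), against 37.2% of the promoters of genes tested and 35.7% of all promoters in the table. E2F letters were found in 27 of the 107 (25.2%), against 7.59% of genes tested and 4.3% of all promoters. Of the 23 matched members called higher, 12 held CCAAT and 9 held E2F letters, and of the 78 not called, 32 and 18 did. Over all genes called higher, 36.7% of promoters held CCAAT and 9.28% held E2F letters. The motifs share letters in 2 of the 107 promoters. By pathway, E2F letters were found in 13 of 29 promoters for DNA replication, 7 of 17 for mismatch repair, 8 of 34 for homologous recombination, 8 of 41 for nucleotide excision repair and 5 of 28 for base excision repair. These matches describe letters only, and binding was not measured here.

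Stretches upstream of called members are printed below 5′ to 3′ on the gene's strand, to show where these letters lie. They are the 6 called members with at least 80 upstream bases free of annotated exons that hold such a match, with CCAAT (or ATTGG, its reverse complement) and the E2F letters in capitals. The sequences are from RefSeq, build GRCh38.p14.
PCNA, chr20:5126627-5126785, minus strand: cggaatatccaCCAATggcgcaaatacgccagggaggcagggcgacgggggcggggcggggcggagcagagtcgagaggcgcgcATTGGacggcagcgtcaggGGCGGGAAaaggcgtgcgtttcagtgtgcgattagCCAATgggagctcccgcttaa
MCM3, chr6:52284882-52284992, minus strand: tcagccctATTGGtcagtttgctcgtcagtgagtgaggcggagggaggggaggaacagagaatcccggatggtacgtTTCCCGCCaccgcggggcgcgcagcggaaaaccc
XRCC3, chr14:103715505-103715701, minus strand: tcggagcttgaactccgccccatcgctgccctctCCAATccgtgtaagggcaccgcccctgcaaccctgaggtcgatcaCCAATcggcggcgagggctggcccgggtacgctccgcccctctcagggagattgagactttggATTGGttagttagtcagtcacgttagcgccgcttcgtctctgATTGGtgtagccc
RNASEH2B, chr13:50909428-50909677, plus strand: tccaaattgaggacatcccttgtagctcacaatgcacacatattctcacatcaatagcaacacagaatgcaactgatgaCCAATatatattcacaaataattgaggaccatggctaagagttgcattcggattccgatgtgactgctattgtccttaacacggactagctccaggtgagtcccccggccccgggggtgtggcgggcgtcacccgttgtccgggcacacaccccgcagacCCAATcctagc
HMGB1, chr13:30465966-30466116, minus strand: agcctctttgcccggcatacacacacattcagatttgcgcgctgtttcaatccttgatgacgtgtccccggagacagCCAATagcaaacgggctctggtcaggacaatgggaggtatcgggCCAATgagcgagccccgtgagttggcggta
APEX1, chr14:20455106-20455190, plus strand: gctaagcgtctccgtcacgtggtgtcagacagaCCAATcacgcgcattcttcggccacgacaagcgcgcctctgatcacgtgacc
The stretch of XRCC3 holds 4 CCAAT boxes and that of PCNA holds 3 and 1 match to the E2F letters. The stretches of HMGB1 and RNASEH2B hold 2 CCAAT boxes each, that of MCM3 holds 1 of each kind, and that of APEX1 holds 1 CCAAT box. The whole promoter windows hold more in part. XRCC3 has 5 CCAAT boxes and 1 E2F match there, MCM3 has 3 of each kind, and HMGB1 has 3 CCAAT boxes. MBD4, the member called lower, has 2 CCAAT boxes in its whole promoter window. CCAAT was found in 37.2% of the promoters of genes tested, and a link between these letters and the direction of change was not tested.

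Among the replication genes, the MCM helicase was higher in part. MCM4, MCM7 and MCM3 passed the test, and MCM2, MCM5 and MCM6 did not, where 18.7% of all genes tested were called higher. MCM4 had 52.6, 53.6 and 51.3 FPKM with vector and 61.5, 62.0 and 60.7 FPKM with shYB1 (log2 fold change 0.23, SE 0.033, adjusted p = 0.000966 from limma). MCM7 rose from 42.8 ± 1.74 to 49.6 ± 0.423 FPKM (SD, n = 3 each) and MCM3 from 34.9 ± 0.992 to 38.6 ± 0.992 FPKM (SD, n = 3 each). The log2 fold changes of MCM2, MCM5 and MCM6 were 0.051, 0.064 and 0.12, with a 95% confidence interval of -0.043 to 0.15 for MCM2. The 6 subunits form a ring with 1 copy of each, while their transcript levels per length ran from 13.8 FPKM for MCM6 to 52.5 FPKM for MCM4 in the vector libraries. After median-of-ratios rescaling, MCM4 and MCM7 kept their calls, and MCM3 had an adjusted p of 0.0882 from limma.

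DNA polymerase alpha and primase, which lay down the primer of each new strand, had 2 of 4 genes higher, against 18.7% of all genes tested. POLA2, the second subunit of polymerase alpha, had 4.31, 4.56 and 5.05 FPKM with vector and 5.54, 5.79 and 6.08 FPKM with shYB1 (log2 fold change 0.32, SE 0.071, adjusted p = 0.00897 from limma). The lowest shYB1 value was above the highest vector value. PRIM1, the catalytic subunit of primase, rose from 11.3 ± 0.494 to 13.2 ± 0.690 FPKM (SD, n = 3 each). POLA1 and PRIM2 had log2 fold changes of 0.16 and 0.13 with adjusted p of 0.0817 and 0.347 from limma. POLA2 shares 34.7% of the 50-base words of its annotated transcripts with other genes, and PRIM1 11.9%.

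None of the 8 subunit genes of the 2 polymerases that extend the strands was called. Of all genes tested, 18.7% were called higher and 6.93% lower. POLE, 1 of the 8, had an unadjusted p under 0.05 in limma. The log2 fold changes were -0.058 to 0.041 for POLD1 to POLD4 and -0.057 to 0.17 for POLE and POLE2 to POLE4. POLD1, the catalytic subunit of polymerase delta, had 14.8, 15.4 and 14.1 FPKM with vector and 15.9, 14.2 and 15.3 FPKM with shYB1, and the groups overlapped. Its 95% confidence interval on the log2 scale was -0.082 to 0.16.

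PCNA, the sliding clamp, was the most abundant of these transcripts and had the lowest adjusted p of all members. It had 81.4, 85.1 and 84.5 FPKM with vector and 98.6, 101 and 97.4 FPKM with shYB1, an increase of 18.2% (log2 fold change 0.24, SE 0.032, adjusted p = 0.000618 from limma). RFC4, a subunit of the clamp loader that places PCNA on DNA, had 17.8, 18.9 and 16.5 FPKM with vector and 22.3, 21.7 and 22.5 FPKM with shYB1. Its increase was 25.2% (log2 fold change 0.32, SE 0.051, adjusted p = 0.00159 from limma). The loader's other subunits, RFC1, RFC2, RFC3 and RFC5, had log2 fold changes of 0.087, 0.093, 0.058 and -0.032 and were not called. PCNA lies on chromosome 20 from 5114953 to 5126626 and RFC4 on chromosome 3 from 186789880 to 186807058, both on the minus strand of GRCh38.

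**Figure D3:**
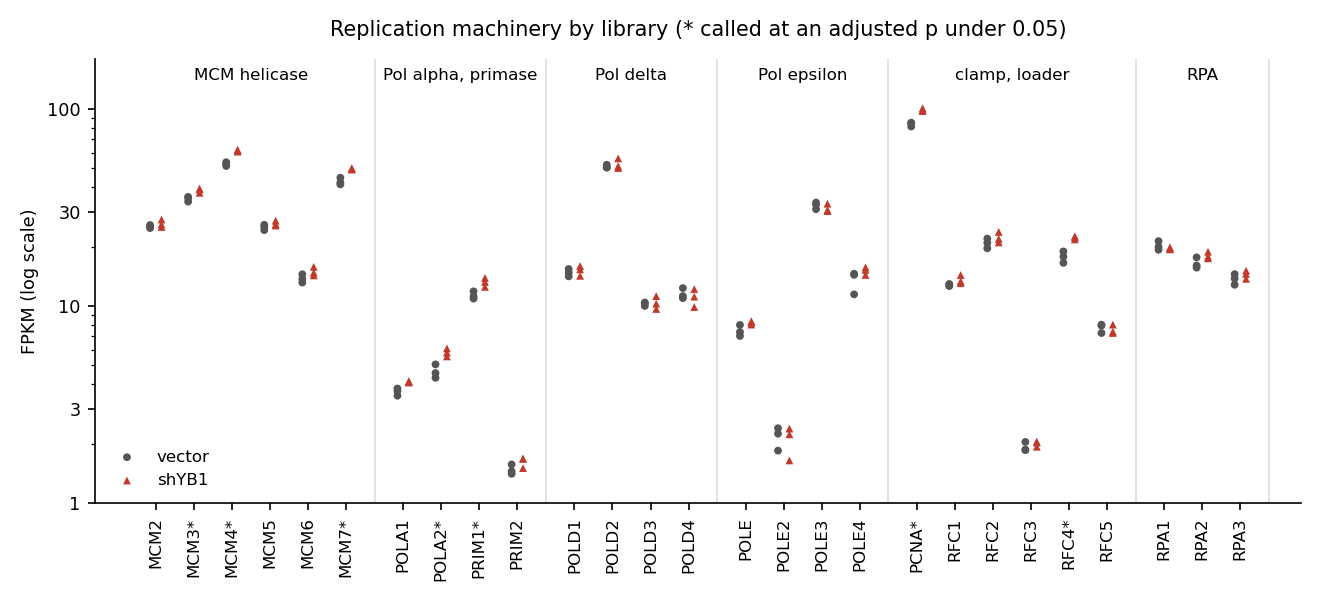
FPKM on a log scale (y axis) of the subunits of the replication machinery, 1 point per library, with vector in grey circles and shYB1 in red triangles. Asterisks mark the 7 subunits called at an adjusted p under 0.05, such as PCNA at 81.4 to 85.1 FPKM in vector and 97.4 to 101 FPKM in shYB1 libraries, while the subunits of polymerases delta and epsilon carry none.

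Replication protein A, which coats single-stranded DNA, was not called. RPA1, RPA2 and RPA3 had log2 fold changes of -0.043, 0.13 and 0.078 (lowest adjusted p = 0.0947 from limma, for RPA2). RPA4, a relative of RPA2, had 0.0548, 0.0287 and 0.123 FPKM with vector, and 0.0857 FPKM in shYB1 replicate 2 with 0 listed in replicates 1 and 3, so it was not tested. SSBP1, the single-stranded DNA binding protein of mitochondria, had 18.9, 17.2 and 17.8 FPKM with vector and 22.4, 22.0 and 21.3 FPKM with shYB1 (log2 fold change 0.29, SE 0.046, adjusted p = 0.00174 from limma). KEGG places SSBP1 in replication, mismatch repair and homologous recombination, so it adds 1 call to each.

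Of the enzymes that remove primers and seal the strand, 2 of 7 were higher (28.6%), against 18.7% of all genes tested. Both belong to ribonuclease H2, which cuts RNA out of RNA-DNA hybrids. RNASEH2A, its catalytic subunit, had 28.2, 30.1 and 29.9 FPKM with vector and 36.4, 34.4 and 36.1 FPKM with shYB1 (log2 fold change 0.28, SE 0.041, adjusted p = 0.00107 from limma). RNASEH2B had lower levels, at 1.34, 1.23 and 1.30 FPKM with vector and 1.71, 1.74 and 1.58 FPKM with shYB1 (log2 fold change 0.35, SE 0.091, adjusted p = 0.0183 from limma). RNASEH2C, the remaining subunit, had a log2 fold change of -0.041, and FEN1 and LIG1, the flap nuclease and the ligase of replication, had 0.0073 and 0.022. The RNASEH2B call was lost without vector replicate 2, shYB1 replicate 1 or shYB1 replicate 2, where its highest adjusted p was 0.0664 from limma. RNASEH2A shares 29.7% of its 50-base words with other annotated genes, THSD8 first.

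Base excision repair was the pathway with the smallest median log2 fold change, 0.021, which became -0.034 after median-of-ratios rescaling. Of its 10 tested glycosylases, the enzymes that find and cut out a damaged base, MBD4 was lower and the other 9 were not called. The share called over all genes tested was 18.7% higher and 6.93% lower. MBD4, which acts on mismatched thymine and uracil at CpG sites, had 5.76, 6.49 and 5.88 FPKM with vector and 5.13, 4.85 and 4.66 FPKM with shYB1. It fell by 19.3% (log2 fold change -0.30, SE 0.066, adjusted p = 0.00825 from limma), with all shYB1 libraries below all vector libraries, and was called under every alternative tried. MBD4 lies on chromosome 3 from 129430944 to 129440179 on the minus strand of GRCh38. SMUG1, another uracil glycosylase, had a log2 fold change of -0.31 and an adjusted p of 0.0522 from limma, and its values overlapped between the groups. After median-of-ratios rescaling it was called lower, with a log2 fold change of -0.36 (adjusted p = 0.032 from limma). UNG, the main uracil glycosylase, had a log2 fold change of 0.20 (adjusted p = 0.0641 from limma). NEIL1 averaged 0.506 FPKM and was not tested.

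Further along base excision repair, APEX1, XRCC1 and HMGB1 were higher. APEX1, the endonuclease that cuts at the abasic site, had 66.9, 67.0 and 72.5 FPKM with vector and 78.7, 78.4 and 78.5 FPKM with shYB1 (log2 fold change 0.19, SE 0.038, adjusted p = 0.00481 from limma). XRCC1, the scaffold of single-strand break repair, had 9.07, 9.33 and 10.5 FPKM with vector and 11.3, 10.7 and 11.3 FPKM with shYB1 (adjusted p = 0.0278 from limma). HMGB1, a chromatin protein, increased by 9.41%, the smallest change among the members called. PARP1, which senses strand breaks, had a log2 fold change of 0.021 with a 95% confidence interval of -0.057 to 0.099. PARP4 had a log2 fold change of -0.12 (adjusted p = 0.0707 from limma), and -0.18 (adjusted p = 0.0171 from limma) after median-of-ratios rescaling. The calls of XRCC1 and HMGB1 were lost after that rescaling, with adjusted p of 0.0738 and 0.153 from limma.

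**Figure D4:**
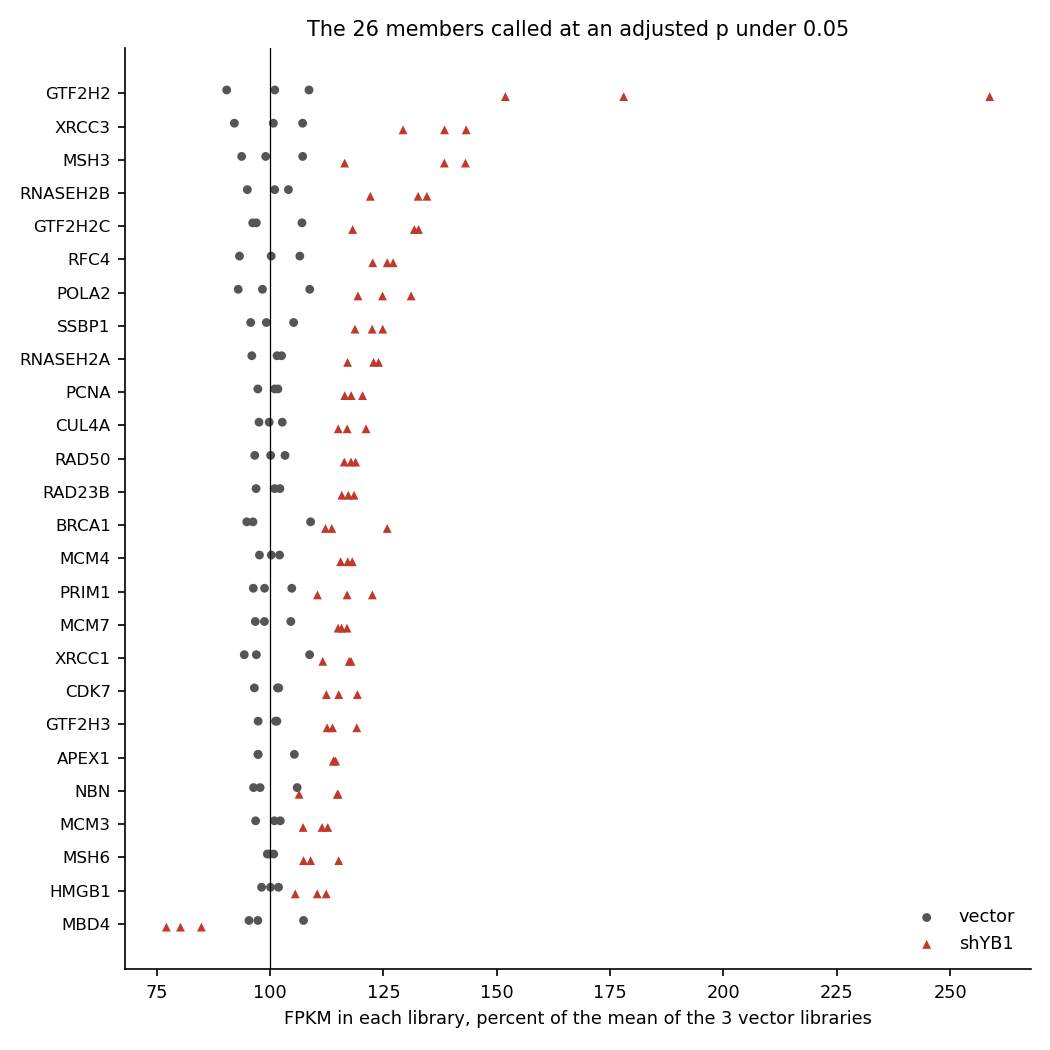
FPKM of the 26 members called, as a percent of the mean of the 3 vector libraries (x axis), 1 point per library, vector in grey circles and shYB1 in red triangles. The 26 were selected by a test on these same values, and in each the groups do not overlap, as in 42.6% of all genes tested. The changes of the means run from 9.41% for HMGB1 to 96.2% for GTF2H2 among those higher, with MBD4 at -19.3%.

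In nucleotide excision repair, 2 of the 8 calls were PCNA and RFC4, and the others lay in damage recognition and in TFIIH, the helicase complex that opens DNA around a lesion and also serves transcription. In damage recognition 2 of 10 tested genes were higher, RAD23B and CUL4A. RAD23B, a partner of the damage sensor XPC, had 46.5, 49.0 and 48.4 FPKM with vector and 55.5, 56.2 and 56.8 FPKM with shYB1 (log2 fold change 0.23, SE 0.034, adjusted p = 0.00118 from limma). CUL4A, the scaffold of a ubiquitin ligase that works with DDB1 and DDB2, rose from 9.15 ± 0.235 to 10.8 ± 0.286 FPKM (SD, n = 3 each). XPC itself and DDB2 had log2 fold changes of 0.11 and 0.055 and were not called.

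Of the 11 TFIIH genes, 4 were higher and 10 had a log2 fold change above 0, against 18.7% and 64.1% of all genes tested. GTF2H2 had 1.15, 1.38 and 1.29 FPKM with vector and 2.26, 1.93 and 3.29 FPKM with shYB1, the largest change of any member tested (log2 fold change 0.89, SE 0.17, adjusted p = 0.00552 from limma). The shYB1 libraries differed among themselves, replicate 3 being the highest, and the log2 fold change was 0.68 without it. GTF2H2C, a near copy on the same chromosome, rose from 1.64 ± 0.0991 to 2.09 ± 0.133 FPKM (SD, n = 3 each). The GTF2H2C call was lost without vector replicate 2 or 3 or shYB1 replicate 1 or 2. Of the 50-base words of their transcripts, GTF2H2 shares 65.1% and GTF2H2C 76.2% with other genes, mainly with each other and with GTF2H2B, so that both values are uncertain. CDK7, the kinase of the complex, rose by 15.6% (adjusted p = 0.0165 from limma) and GTF2H3 by 15.1% (adjusted p = 0.0111 from limma). The CDK7 call was lost after median-of-ratios rescaling (adjusted p = 0.0646 from limma) and without shYB1 replicate 2. The helicases ERCC2 and ERCC3 had log2 fold changes of 0.058 and 0.10 and were not called. The genes of verification and incision, XPA, ERCC1, ERCC4 and ERCC5, had log2 fold changes of -0.16 to 0.21 with no call and 1 unadjusted p under 0.05 in limma. ERCC1 and ERCC5 were lower after median-of-ratios rescaling (log2 fold changes -0.16 and -0.21, adjusted p of 0.0451 and 0.0347 from limma). ERCC5 shares 62.3% of its words, mainly with the readthrough gene BIVM-ERCC5, which is a member of its own and had a log2 fold change of 0.059. ERCC6 averaged 0.791 FPKM and was not tested.

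In mismatch repair, 3 of the 5 genes called higher were the shared replication genes PCNA, RFC4 and SSBP1. The other 2 were MSH3 and MSH6, which take part in mismatch recognition. MSH3 had 1.04, 1.10 and 1.19 FPKM with vector and 1.30, 1.59 and 1.54 FPKM with shYB1 (log2 fold change 0.38, SE 0.11, adjusted p = 0.0293 from limma). MSH6 had 12.7, 12.9 and 12.7 FPKM with vector and 13.7, 14.7 and 13.9 FPKM with shYB1 (log2 fold change 0.14, SE 0.045, adjusted p = 0.0399 from limma). Both calls were lost after median-of-ratios rescaling, with adjusted p of 0.0511 and 0.175 from limma. Without 1 library the call of MSH6 was lost in all 6 fits. That of MSH3 was lost without vector replicate 1 or 2 or shYB1 replicate 2 or 3. PMS2 had a log2 fold change of 0.068 and EXO1, the excision nuclease, had 0.21 (adjusted p = 0.119 from limma), and neither was called. PMS2 shares 23.0% of its words with its pseudogenes.

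In homologous recombination, XRCC3 had the clearest change. XRCC3, a recombination protein, had 5.95, 5.44 and 6.33 FPKM with vector and 8.18, 7.64 and 8.46 FPKM with shYB1. The increase was 37.0% (log2 fold change 0.45, SE 0.067, adjusted p = 0.0012 from limma), and the call held under every alternative tried. XRCC3 lies on chromosome 14 from 103697609 to 103715504 on the minus strand of GRCh38, and its exons overlap those of KLC1 on the opposite strand, whose log2 fold change was 0.062. XRCC2, which also acts in recombination, had a log2 fold change of 0.23 and was not called (adjusted p = 0.077 from limma).

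Of the end resection genes, which trim a broken end into a single strand, RAD50 and NBN were higher, and their partner MRE11 had a log2 fold change of -0.011. RAD50 had 7.58, 7.82 and 7.31 FPKM with vector and 8.92, 8.81 and 9.00 FPKM with shYB1 (log2 fold change 0.23, SE 0.049, adjusted p = 0.00718 from limma). RAD50 shares 77.7% of its words with the annotated gene AC116366.3, which overlaps it on the same strand. NBN was just past the threshold, rising from 11.7 to 13.2 FPKM on average (adjusted p = 0.0489 from limma). BRCA1, which works with BARD1 in resection and strand exchange, had 4.83, 5.54 and 4.90 FPKM with vector and 6.40, 5.71 and 5.78 FPKM with shYB1 (log2 fold change 0.23, SE 0.072, adjusted p = 0.0429 from limma). With the replicate number of the labels as a block, the adjusted p of BRCA1 was 0.0535 from limma, and after median-of-ratios rescaling it was 0.113 for BRCA1 and 0.168 for NBN. Of the 5 genes that resolve branched DNA, none was called and 1, TOP3A, had an unadjusted p under 0.05 in limma, and BLM had a log2 fold change of 0.10. BRCA2 averaged 0.753 FPKM and was not tested. SYCP3, a protein of meiotic chromosomes, was listed at 0 in all shYB1 libraries and in vector replicate 3.

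Genes that work beside these pathways, but that KEGG does not place in them, were taken from lists of their own. Of 25 tested genes in a list of origin licensing and firing, 12 were higher (48.0%) and 0 lower, against 18.7% and 6.93% of all genes tested. The list was drawn broadly, and TIMELESS, TIPIN, CLSPN and MCM8 were among those 12. After median-of-ratios rescaling 5 of the 25 were higher, ORC5, ORC6, MCM8, MCM10 and CLSPN, and 0 lower. ORC6, a subunit of the origin recognition complex, had 6.06, 6.65 and 7.62 FPKM with vector and 8.35, 10.6 and 9.998 FPKM with shYB1 (log2 fold change 0.50, SE 0.10, adjusted p = 0.00746 from limma). The median log2 fold change of this list was 0.20, against 0.055 over all genes tested. Of 15 genes in a mixed list of S phase and proliferation, 6 were higher (40.0%) and 0 lower. The 6 were E2F1, E2F7, UHRF1, CCNB1, BUB1 and AURKA, while MKI67, CDK1 and CCNA2 were among those not called. After median-of-ratios rescaling 5 were higher and 1, TOP2A, lower, where 11.4% of all genes tested were higher and 12.0% lower. E2F7, a repressor of the E2F family, rose from 8.21 to 10.7 FPKM on average (log2 fold change 0.38, SE 0.054, adjusted p = 0.000874 from limma).

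The other lists had fewer calls in number, and over all genes tested 18.7% were higher and 6.93% lower. The share called higher was 28.6% for dNTP supply and for non-homologous end joining. It was 18.2% for translesion synthesis and for the Fanconi anemia list, and 7.14% for checkpoint signalling. Of 14 genes of dNTP supply 4 were higher, DTYMK most (log2 fold change 0.36, adjusted p = 0.0140 from limma). Non-homologous end joining had 2 of 7 higher, NHEJ1 at a log2 fold change of 0.37 and PRKDC, the DNA-dependent protein kinase, at 0.35. Translesion synthesis had 2 of 11 higher, RAD18 and UBE2A, both at 0.22 on the log2 scale. The Fanconi anemia list had 2 of 11 higher, FANCE most at 0.40, and FANCG lower at -0.17. Checkpoint signalling had 1 of 14 higher and 1 lower. CHEK1, the checkpoint kinase below ATR, had a log2 fold change of 0.32 (adjusted p = 0.00465 from limma), and RAD9A, of the checkpoint clamp, one of -0.32 (adjusted p = 0.00733 from limma). After median-of-ratios rescaling the genes higher and lower were 3 and 0 for dNTP supply, 1 and 1 for non-homologous end joining, 1 and 0 for translesion synthesis, 1 and 1 for the Fanconi anemia list, and 1 and 2 for checkpoint signalling. NHEJ1, RAD18 and FANCE then lost their calls, with adjusted p of 0.0576, 0.0561 and 0.0632 from limma, and POLM, an end joining polymerase, was lower (adjusted p = 0.028 from limma). Over all genes tested, 11.4% were higher and 12.0% lower after that rescaling. The lists were not compared with each other by a test.

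**Figure D5:**
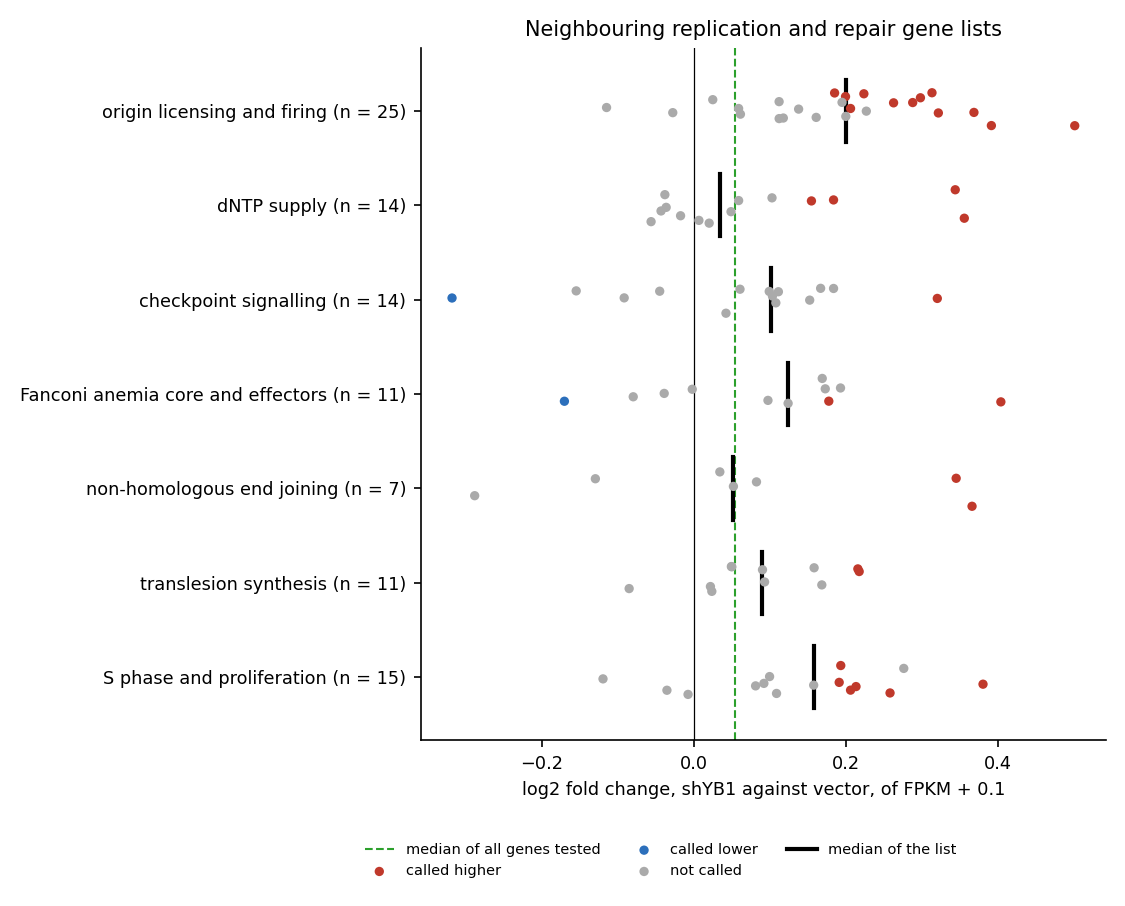
Log2 fold change (shYB1 against vector, on FPKM + 0.1, x axis) of each tested gene in 7 lists outside the KEGG pathways, coloured by its call at an adjusted p under 0.05, with list medians as black bars. The median of origin licensing and firing is 0.20, and the dashed line marks 0.055, the median of all genes tested.

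Overlap with other annotated genes limits some of these values, since the sources used here do not say whether counting used the strand. Of the 26 members called, 17 have exons that overlap another annotated gene, and 9 lie opposite a gene that was itself tested. RFC4 lies opposite EIF4A2, which had 96.7 FPKM in vector and 93.1 FPKM in shYB1 libraries on average, with a log2 fold change of -0.055. MCM7 lies opposite AP4M1, with a log2 fold change of 0.15 (adjusted p = 0.17 from limma), and MBD4 opposite IFT122, with 0.018. GTF2H3 lies opposite EIF2B1, which was itself higher, with a log2 fold change of 0.25 (adjusted p = 0.00371 from limma). MSH6 lies opposite FBXO11, which was lower, with a log2 fold change of -0.14 (adjusted p = 0.0459 from limma). The part of such overlaps in the results was not tested.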

How the data were processed

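RNA of 786-O cells was sequenced in 3 vector and 3 shYB1 libraries. The authors deposited FPKM per gene for each library, with GO and KEGG annotation. Per the submitters' processing notes, Trimmomatic, HISAT2, Cufflinks, HTSeq and DESeq were used with GRCh38; versions, roles and filters are not given in the sources used here. The series text speaks of several independent shRNAs, whereas the labels give a single shYB1 group. Values were moved to log2(FPKM + 0.1), and the 10439 genes averaging 1 FPKM or more were fitted by limma 3.58.1 under R 4.3.3 (lmFit, eBayes with trend and robust prior). Two-sided p-values were adjusted by Benjamini-Hochberg across every gene fitted, and genes were called at an adjusted p under 0.05. Alternatives were pseudocounts of 1 and 0.01, no filter, a filter at 5 FPKM, median-of-ratios size factors, a common total (TPM), a variance prior without trend, a replicate block, and each library left out. Fold changes are on this scale, which understates changes of low genes. The fit was tested on simulated data. All 124 members were matched to GENCODE 29 on GRCh38, 84 by RefSeq accession and 40 by symbol. Python 3.11.15 was used for other steps. The members and gene lists were chosen with earlier results of these data known. Genes were named by a rule: up to 4 called genes in each direction and pathway with the largest change and no overlap between groups, the subunits of the replication machinery, selected repair genes whatever their values, and the gene changed most in each further list. All other genes given with values were chosen after their values were seen. Some members are counted but not reported by name here.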

Additional observations from a re-analysis of the deposited data

How the results depend on the processing

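No call of the 26 members changed direction under the 14 alternatives, and 15 members were called under every alternative in which they were tested. The exceptions were BRCA1, CDK7, GTF2H2C, HMGB1, MCM3, MSH3, MSH6, NBN, PRIM1, RNASEH2B and XRCC1. With median-of-ratios size factors, the calls over all genes tested became 1192 higher and 1253 lower in place of 1956 and 723. The members called lower became 6 in all, 3 in base excision repair and 3 in nucleotide excision repair. The members called higher became 2 in base excision repair, 3 in mismatch repair and 3 in homologous recombination, and the median log2 fold change of base excision repair turned to -0.034. With a common total (TPM), 2 members were lower, both in base excision repair, and 3 in homologous recombination were higher. With no filter on low values, 3 were higher in mismatch repair and 3 in homologous recombination. A variance prior without trend left 2 higher in base excision repair. With the replicate block, 2 members were lower, both in base excision repair, and BRCA1 lost its call. The same replicate numbers stand in both groups, but deviations from the group means correlated at -0.169, -0.059 and -0.00824 for the pairs of equal number. No library correlated best with its own number, so the numbers were not taken to pair the libraries. The cause of these moves was not tested.

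With 1 library left out, the members called higher ranged from 18 to 26 and those called lower from 1 to 2. By pathway, the range of members called higher was 8 to 11 for DNA replication, 2 to 5 for base excision repair, 7 to 9 for nucleotide excision repair, 3 to 5 for mismatch repair and 3 to 7 for homologous recombination. Members called lower ranged from 1 to 2 for base excision repair and from 0 to 1 for nucleotide excision repair. Base excision repair fell to 2 called higher without vector replicate 1 or shYB1 replicate 3. Mismatch repair fell to 3 without vector replicate 1 or shYB1 replicate 2 or 3, and homologous recombination to 3 without vector replicate 1 or shYB1 replicate 1 or 2. Since the table holds no counts, depth limits could not be computed.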

Other observations

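By the outermost ends of the annotated genes, several members start next to another gene that is read in the opposite direction. Within 1000 bases of such starts, 21 tested members had a protein-coding neighbour of this kind that was also tested. This comparison was chosen after the data were seen. For some members, the RefSeq promoters used above lie apart from these starts. HMGB1 starts at 30617597 on chromosome 13 by its outermost end, and its RefSeq promoter runs from 30465887 to 30466186. RAD52 (990053, promoter 949645 to 949944) and MPG (77007, promoter 77975 to 78274) differ too. The counts given here therefore hold for the outermost ends only. MCM4 and PRKDC, whose annotated starts lie 2 bases apart, were both higher, with log2 fold changes of 0.23 and 0.35 (SE 0.050 for PRKDC). PCNA was higher while its neighbour CDS2, with starts 160 bases apart, was lower, at a log2 fold change of -0.20 (SE 0.052, adjusted p = 0.0185 from limma). The neighbours of the other 4 such members called higher, APEX1, BRCA1, HMGB1 and XRCC3, were not called. Of the 15 such members not called, 7 had a neighbour called higher. Over all genes tested, 18.7% were called higher and 6.93% lower. Among the 7 were PMS2, at 0.068, beside AIMP2, at 0.45 (adjusted p = 0.00393 from limma), and LIG1, at 0.022, beside ZSWIM9, at 0.25 (adjusted p = 0.0249 from limma). These calls are from FPKM as deposited, and whether neighbours differ from all genes was not tested.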
